A study of Mus musculus with 6 samples.

Results

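Nuclear factor erythroid 2-related factor 2 (NRF2, encoded by Nfe2l2), its inhibitor Keap1 and 8 of its best-known antioxidant target genes were followed in kidney messenger RNA of mice that lacked 1 kidney. The 10 genes were chosen by symbol, as Nfe2l2, Keap1, Nqo1, Hmox1, Gclc, Gclm, Srxn1, Txnrd1, Gsr and Txn1. All 10 stood among the 24346 genes of the deposited tables, and all 10 passed the filter on low values (an average of 1 FPKM or more over the 6 libraries), which left 11737 genes to test. FPKM scales the fragments sequenced from a gene to the length of its transcript and to the size of the library. One group of mice drank water with 0.1% D-serine (3 libraries) and the other drank the same water without it (vehicle, 3 libraries). Both groups ate a serine-free diet, received their water for 1 week, then underwent unilateral nephrectomy (removal of 1 kidney, called UNX in the labels) and were killed 2 days later. D-serine is the mirror image of the amino acid L-serine, and the kidney degrades it with an oxidase that releases hydrogen peroxide. The labels give no strain, sex, age or genotype, and they leave unsaid whether the 3 libraries of a group are 3 mice, so that the p-values reflect variation among libraries that could be technical. Sham-operated mice were not analysed here.

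NRF2 is a basic leucine zipper transcription factor that is made continuously and, in unstressed cells, destroyed continuously. KEAP1 holds it in the cytoplasm and presents it to a CUL3 ubiquitin ligase. Electrophiles and oxidants modify cysteines of KEAP1, after which NRF2 accumulates, pairs with a small MAF protein and binds antioxidant response elements near its target genes. Control therefore acts largely on the NRF2 protein, which was not measured here, and the target transcripts serve as its readout. In the kidney the pathway is known for limiting tubule damage by ischaemia and toxins. The targets described here make and recycle glutathione (Gclc, Gclm, Gsr), run the thioredoxin system (Txn1, Txnrd1, Srxn1), reduce quinones (Nqo1) and break down heme (Hmox1).

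The promoters of 7 of the 10 genes were found in the RefSeq table (build GRCm38.p6, which is mm10), in 9 windows because Txnrd1 has 3 annotated starts. Hmox1, Gclc and Gsr had no entry. The 250 bases before each start were searched on both strands for the antioxidant response element core TGACNNNGC and for TGANTCAGC, a form that can contain an AP-1 site, and no match of one overlapped a match of the other. The windows of 4 genes are shown 5′ to 3′ with any match in capitals: 3 windows that held a match, and that of Txn1, the gene with the smallest p, which held none.
Nfe2l2 (chr2:75704664-75704913, minus strand): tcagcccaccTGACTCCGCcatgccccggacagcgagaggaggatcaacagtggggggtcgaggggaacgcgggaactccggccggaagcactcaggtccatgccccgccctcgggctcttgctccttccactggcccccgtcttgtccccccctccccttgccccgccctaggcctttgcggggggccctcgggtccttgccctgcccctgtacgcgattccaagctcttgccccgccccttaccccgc
Gclm (chr3:122245307-122245556, plus strand): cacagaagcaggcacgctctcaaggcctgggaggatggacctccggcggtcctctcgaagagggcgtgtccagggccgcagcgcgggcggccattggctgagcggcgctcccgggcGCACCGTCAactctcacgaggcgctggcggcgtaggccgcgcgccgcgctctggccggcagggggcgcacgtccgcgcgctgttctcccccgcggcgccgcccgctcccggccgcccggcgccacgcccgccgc
Srxn1 (chr2:152105274-152105523, plus strand): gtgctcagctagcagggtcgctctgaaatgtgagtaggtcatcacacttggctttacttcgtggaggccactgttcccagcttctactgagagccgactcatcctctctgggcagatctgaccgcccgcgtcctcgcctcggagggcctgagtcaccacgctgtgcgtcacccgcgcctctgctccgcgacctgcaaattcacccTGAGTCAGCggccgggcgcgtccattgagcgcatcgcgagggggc
Txn1 (chr4:57956412-57956661, minus strand): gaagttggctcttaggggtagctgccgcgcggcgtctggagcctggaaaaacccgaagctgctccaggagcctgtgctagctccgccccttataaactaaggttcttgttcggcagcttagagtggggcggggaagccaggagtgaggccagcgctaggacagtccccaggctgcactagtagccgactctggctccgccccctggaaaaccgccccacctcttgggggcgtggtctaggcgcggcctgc
The Srxn1 window held TGAGTCAGC, from position -45 to -37 relative to the start. Nfe2l2 held TGACTCCGC, from -240 to -232. Gclm held a match on the other strand from -134 to -126, and the second of the 3 Txnrd1 windows held another. Of all 32851 windows of the same length, 10.2% held TGACNNNGC and 1.02% held TGANTCAGC. These matches are letters in a window and not measured binding sites. Elements farther upstream were not searched.

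No member passed the test between D-serine and vehicle at an adjusted p of 0.05 (limma on log2(FPKM + 1) over all tested genes, Benjamini-Hochberg), where 0.0767% of all tested genes did. At an unadjusted p under 0.05 there was 1 member, Txn1, and 27.7% of all tested genes met the same limit. The smallest adjusted p of the group was 0.106, for Txn1, and the largest was 0.98, for Gclc. Of the 10 log2 differences 4 were above 0 and 6 below, where 48.9% of all tested genes were above 0. They lay between -0.30 for Hmox1 and 0.31 for Txn1, with a median of -0.084 against -0.0078 over all tested genes. The median size of the difference, sign left aside, was 0.15 for the members and 0.21 for all tested genes. Expressed as a ratio of D-serine to vehicle, the 95% intervals of the 10 genes ran from 0.627 (the lower bound of Hmox1) to 1.44 (the upper bound of Txn1). A doubling or a halving of any of the 10 transcripts lay outside its interval on this FPKM + 1 scale, and 9 of the 10 intervals included a ratio of 1. In 4 of 10 members the D-serine libraries did not overlap the vehicle libraries, above them for Txn1 and Nqo1 and below them for Keap1 and Gclm. Among all tested genes 35.8% did not overlap, 16.5% above and 19.4% below, so the members' share was close to the background.

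**Figure D1:**
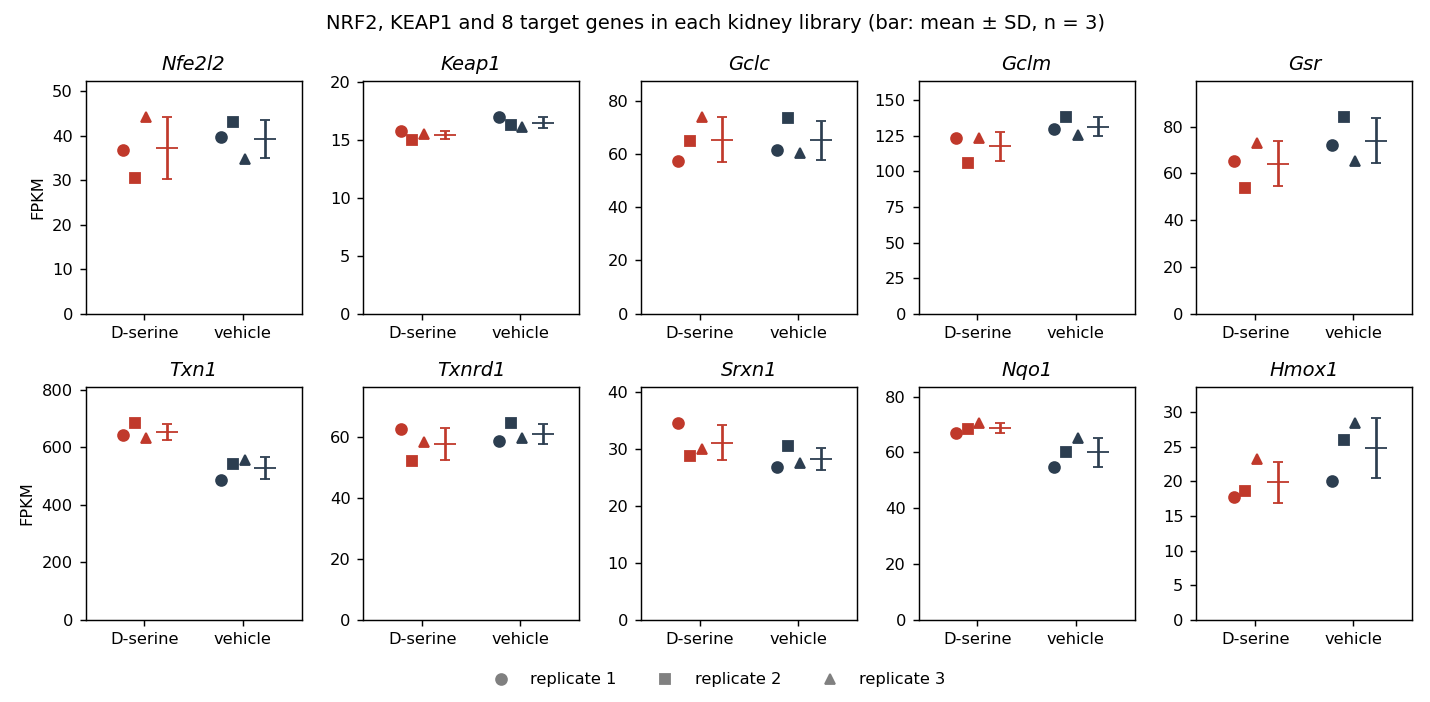
Level of each gene in FPKM (vertical axes start at 0) in the 3 D-serine libraries (red, left) and the 3 vehicle libraries (dark, right), with the mean ± SD beside the points. Txn1 and Nqo1 have every D-serine library above every vehicle library, Keap1 and Gclm have every D-serine library below, and the other 6 genes overlap.

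Nfe2l2, which encodes NRF2 itself (chromosome 2, 75675513 to 75704641, minus strand, mm10), was at 36.8, 30.4 and 44.3 FPKM in D-serine replicates 1 to 3, against 39.7, 43.2 and 34.9 FPKM in vehicle replicates 1 to 3. The D-serine group held both the highest and the lowest of the 6 libraries, so the groups overlapped throughout. Its means were 37.2 ± 6.97 and 39.3 ± 4.17 FPKM (SD, n = 3 each), and the log2 difference was -0.088 ± 0.15 (SE, limma adjusted p = 0.73). Without D-serine replicate 2, the lowest library, the difference turned to 0.045 (adjusted p = 0.86).

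Keap1, the adaptor that leads NRF2 to destruction (chromosome 9, 21229730 to 21239361, minus strand), was at 15.7, 14.98 and 15.5 FPKM with D-serine, against 17.0, 16.3 and 16.1 FPKM with vehicle. Every D-serine library was below every vehicle library, yet the highest D-serine and the lowest vehicle library were 15.7 and 16.1 FPKM. The means of 15.4 ± 0.371 and 16.5 ± 0.463 FPKM differed by -0.092 ± 0.083 on the log2 scale (adjusted p = 0.49). That difference stayed below 0 in all 14 alternatives, between -0.11 and -0.066, and passed in none. At the estimated depth Keap1 rested on roughly 399 to 545 fragments per library. An antisense gene, Gm16754, shares 510 exon bases with Keap1 in the GENCODE annotation, and the strand setting used in counting is not given here.

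The ratio of Nfe2l2 to Keap1, which does not depend on how a library is scaled, was 2.34, 2.03 and 2.87 with D-serine, against 2.34, 2.65 and 2.17 with vehicle. Its group means were 2.41 ± 0.424 and 2.39 ± 0.247 (SD, n = 3 each; exact permutation test, two-sided p = 0.9, where 0.1 is the smallest p that 3 against 3 can give). The means differed by less than the spread between libraries, which was wider with D-serine. The log2 difference of the ratio was 0.0068, and it was -0.13 without D-serine replicate 3 and 0.12 without D-serine replicate 2.

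Gclc, the catalytic subunit of glutamate-cysteine ligase, the rate-limiting enzyme of glutathione synthesis (chromosome 9, 77754535 to 77794485, plus strand), was at 57.2, 64.9 and 74.0 FPKM with D-serine, against 61.3, 73.5 and 60.3 FPKM with vehicle. Its means of 65.4 ± 8.42 and 65.0 ± 7.37 FPKM were the closest pair of the group relative to their spread, with a log2 difference of 0.0054 ± 0.13 (adjusted p = 0.98). The sign of so small a difference changed in 4 of the 14 alternatives, and it stayed between -0.087 and 0.097.

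Gclm, the modifier subunit that raises the activity of GCLC (chromosome 3, 122245557 to 122270732, plus strand), was at 123.4, 105.9 and 123.2 FPKM with D-serine, against 129.97, 138.5 and 125.7 FPKM with vehicle. Each D-serine library was below each vehicle library, with replicate 2 farthest away. The means were 117 ± 10.03 and 131 ± 6.52 FPKM, a log2 difference of -0.16 ± 0.10 (adjusted p = 0.32). Without D-serine replicate 2 or without vehicle replicate 2, the 2 extreme libraries, the difference kept its sign, as it did in all 14 alternatives, between -0.20 and -0.090. Gclm shares 296 exon bases with a gene on the other strand (Gm17494) and 244 with a processed pseudogene on its own strand (Gm6061), so its value is uncertain to that extent. The ratio of Gclc to Gclm was 0.463, 0.613 and 0.601 with D-serine, against 0.471, 0.531 and 0.480 with vehicle, and the groups overlapped through D-serine replicate 1 (exact permutation test, two-sided p = 0.4).

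Gsr, glutathione reductase, which uses NADPH to return oxidised glutathione to its thiol form (chromosome 8, 33652523 to 33698163, plus strand), was at 65.4, 53.9 and 73.2 FPKM with D-serine, against 72.1, 84.4 and 65.5 FPKM with vehicle. The groups overlapped, with the extremes again in replicate 2 of each. The means of 64.1 ± 9.69 and 74.0 ± 9.57 FPKM gave a log2 difference of -0.21 ± 0.14 (adjusted p = 0.38). Over the 14 alternatives that difference ran from -0.31 to -0.089, and it was -0.089 without D-serine replicate 2.

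Txn1, cytosolic thioredoxin, the disulfide reductase that serves peroxiredoxins and ribonucleotide reductase, had the smallest p of the group. It lies on chromosome 4 (57943373 to 57956411, minus strand) and was by far the most abundant member per transcript length, at 642.6, 685.6 and 632.0 FPKM with D-serine, against 485.1, 543.5 and 557.3 FPKM with vehicle. Every D-serine library was above every vehicle library, and the gap between the groups, 557.3 to 632.0 FPKM, was wider than the spread of the D-serine libraries. The means were 653 ± 28.4 and 529 ± 38.3 FPKM, a ratio of 1.24 and a log2 difference of 0.31 ± 0.095 (95% interval 0.084 to 0.53, unadjusted p = 0.014, adjusted p = 0.106). It did not pass, and by unadjusted p it was number 1503 of 11737 genes. The difference was positive in all 14 alternatives, from 0.25 to 0.35, and passed in none of them (adjusted p from 0.091 to 0.28). The annotation names a pseudogene copy, Txn-ps1, whose reads could be shared with Txn1.

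Txnrd1, cytosolic thioredoxin reductase, the selenoprotein that recharges thioredoxin with NADPH (chromosome 10, 82833951 to 82897712, plus strand), was at 62.6, 52.2 and 58.1 FPKM with D-serine, against 58.6, 64.6 and 59.4 FPKM with vehicle. The groups overlapped, with means of 57.6 ± 5.25 and 60.9 ± 3.25 FPKM and a log2 difference of -0.080 ± 0.10 (adjusted p = 0.63). Leaving out a library gave -0.011 (D-serine replicate 2), -0.14 (D-serine replicate 1) or -0.037 (vehicle replicate 2). D-serine replicate 2 held the lowest Txnrd1 of the 6 libraries and the highest Txn1.

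Srxn1, sulfiredoxin, which repairs over-oxidised peroxiredoxins and whose window above holds TGAGTCAGC, lies on chromosome 2 (152105516 to 152111376, plus strand). It was at 34.6, 28.8 and 29.9 FPKM with D-serine, against 26.8, 30.4 and 27.5 FPKM with vehicle. Vehicle replicate 2 lay above 2 of the D-serine libraries, so the groups overlapped. The means were 31.1 ± 3.06 and 28.2 ± 1.91 FPKM, with a log2 difference of 0.13 ± 0.11 (adjusted p = 0.44). Without D-serine replicate 1 the difference was 0.055.

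Nqo1, the quinone reductase most often used as an NRF2 readout (chromosome 8, 107388225 to 107403206, minus strand), was at 67.0, 68.4 and 70.6 FPKM with D-serine, against 54.8, 60.3 and 65.1 FPKM with vehicle. All D-serine libraries were above all vehicle libraries, although D-serine replicate 1 exceeded vehicle replicate 3 by little. The means of 68.7 ± 1.85 and 60.0 ± 5.15 FPKM stood at a ratio of 1.14, a log2 difference of 0.19 ± 0.096 (95% interval -0.031 to 0.42, adjusted p = 0.23). The difference stayed positive in all 14 alternatives, between 0.13 and 0.26.

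Hmox1, heme oxygenase 1, which opens heme into biliverdin, iron and carbon monoxide (chromosome 8, 75093621 to 75100589, plus strand), was at 17.8, 18.6 and 23.2 FPKM with D-serine, against 20.0, 26.0 and 28.5 FPKM with vehicle. D-serine replicate 3 lay above vehicle replicate 1, so the groups overlapped. The means were 19.8 ± 2.90 and 24.8 ± 4.33 FPKM, and the log2 difference of -0.30 ± 0.16 was the lowest of the 10 (95% interval -0.67 to 0.065, adjusted p = 0.25). That difference stayed below 0 in all 14 alternatives, between -0.44 and -0.20, and passed in none. Hmox1 had the thinnest data of the group, at roughly 199 to 328 fragments per library. Macrophages that clear erythrocytes are known to express Hmox1. Haemoglobin transcripts were present in all 6 libraries and highest in vehicle replicate 1, with Hba-a1 at 120 FPKM there and 2.95 to 12.9 FPKM elsewhere. The 6 erythroid markers in the tables include Slc4a1, which also marks intercalated cells. They summed to 38.9, 24.1 and 46.2 FPKM with D-serine, against 332, 35.2 and 16.1 FPKM with vehicle. Vehicle replicate 1, with the most, held the lowest Hmox1 of its group. The 10 macrophage markers summed to between 12.7 and 22.3 FPKM with D-serine, against 11.2 to 19.2 FPKM with vehicle. Of these, Adgre1 did not exceed 0.156 FPKM in any library, while Csf1r reached 6.35 FPKM and C1qa 6.04 FPKM. Single markers differed in direction. Cd68 averaged 1.73 FPKM with D-serine and 0.566 FPKM with vehicle, and Csf1r averaged 3.42 and 5.78 FPKM in the same order (adjusted p = 0.078 and 0.14 in limma). The part of blood or of macrophages in the level of Hmox1 was not tested.

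**Figure D2:**
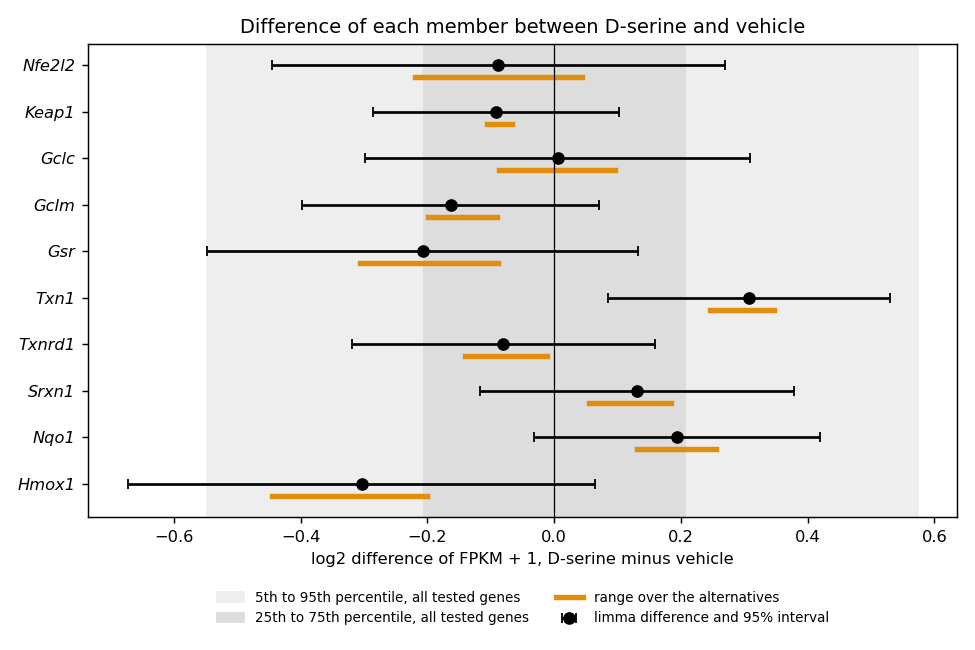
Log2 difference of FPKM + 1 for each member (black, limma estimate with its 95% interval), the range of the estimate over the 14 alternatives (orange) and, in grey, the range of all tested genes. Only the interval of Txn1 lies wholly on 1 side of 0, and each estimate falls within the 5th to 95th percentile of all tested genes, -0.55 to 0.57.

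Per transcript length, the levels averaged with vehicle ran from Keap1 (16.5 FPKM) and Hmox1 (24.8 FPKM) through Srxn1 (28.2 FPKM) and Nfe2l2 (39.3 FPKM) to Nqo1 (60.0 FPKM), Txnrd1 (60.9 FPKM), Gclc (65.0 FPKM), Gsr (74.0 FPKM), Gclm (131 FPKM) and Txn1 (529 FPKM). Neighbours in that order whose libraries overlapped were Hmox1 and Srxn1, and the run of Nqo1, Txnrd1, Gclc and Gsr. The same ends of the order held with D-serine, from Keap1 at 15.4 FPKM and Hmox1 at 19.8 FPKM to Gclm at 117 FPKM and Txn1 at 653 FPKM.

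Several members stood low or high together in the same library. D-serine replicate 2 was the lowest of the 6 libraries for 5 of the 10 members (Nfe2l2, Keap1, Gclm, Txnrd1 and Gsr), and vehicle replicate 2 was the highest for 3 (Gclm, Txnrd1 and Gsr). Among all tested genes D-serine replicate 2 was the lowest library for 32.1%, and vehicle replicate 2 the highest for 20.0%. The median deviation of the members from their 6-library mean was -0.13 on the log2 scale in D-serine replicate 2 and 0.14 in vehicle replicate 2, against -0.021 and 0.015 over all tested genes. D-serine replicate 2 was also the shallowest library by the estimate from low values, at 0.836 of the depth of vehicle replicate 1, and its part in these deviations was not tested. Without it the median log2 difference of the members was -0.0025 in place of -0.084.

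**Figure D3:**
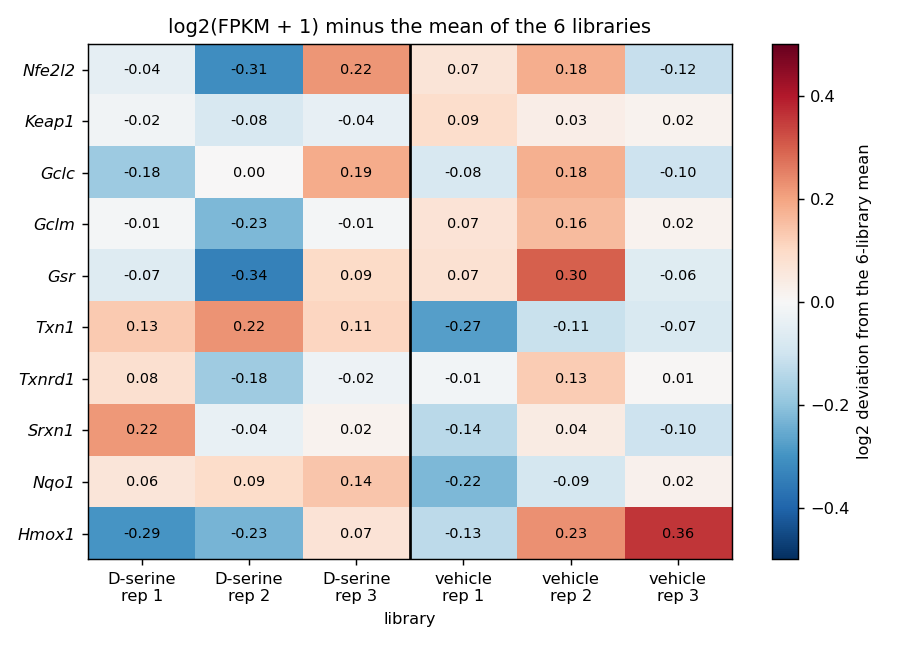
Each cell gives log2(FPKM + 1) of a member in 1 library minus its mean over the 6 libraries, with D-serine libraries left of the line and vehicle libraries right. Nfe2l2, Gclm, Gsr and Txnrd1 are lowest in D-serine replicate 2, and Txn1 is highest there and lowest in vehicle replicate 1.

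The 3 genes nearest in pattern to Nfe2l2 over the 6 libraries, by the root-mean-square difference of centred log2(FPKM + 1), were Hnrnpm (0.045), Ipmk (0.047) and Wrb (0.050). Those nearest to Txn1 were Cox4i1 (0.025), Ube2u (0.029) and Ppp1r11 (0.032). Such likeness was common: 130 genes lay within 0.1 of Nfe2l2 and 527 within 0.1 of Txn1. Cox4i1, a subunit of cytochrome c oxidase, was at 2671, 2743 and 2507 FPKM with D-serine, against 2003, 2233 and 2300.2 FPKM with vehicle.

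The wider pathway was read from 7 lists of 118 genes in all, of which 98 were tested. No gene of these lists passed in limma at an adjusted p of 0.05 (lowest adjusted p = 0.057), and at an unadjusted p under 0.05 there were 12 higher and 14 lower, or 26.5% of the 98, against 27.7% of all tested genes (13.1% higher and 14.6% lower). In 15 of the 98 all D-serine libraries were above all vehicle libraries and in 17 all were below, which makes 32.7% against 35.8% of all tested genes. List by list this share ran from 11.8% for thioredoxins and their partners to 56.25% for glutathione genes. NADPH supply stood at 50%, and the rest lay between 22.2% and 30.8%. The 3 genes of each list with the smallest p are given next, and none of them passed.

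Among the factors that control NRF2, 2 of 13 tested genes had a log2 difference above 0 and 11 below, with a median of -0.13. Cul3, the ligase scaffold that works with KEAP1, was at 41.2, 32.5 and 42.1 FPKM with D-serine, against 55.5, 53.5 and 48.1 FPKM with vehicle (log2 difference -0.44, adjusted p = 0.095 in limma). Sqstm1, encoding the autophagy receptor p62 that competes for KEAP1, was at 269.7, 246 and 304 FPKM with D-serine, against 323, 338 and 348 FPKM with vehicle (adjusted p = 0.12). Bach1, the repressor that occupies the same elements as NRF2, was at 4.13, 3.61 and 5.82 FPKM with D-serine, against 6.26, 6.36 and 5.84 FPKM with vehicle (adjusted p = 0.16). In all 3, picked for the smallest p, the D-serine libraries lay below the vehicle libraries, for Bach1 only just. Of the 13 tested genes, 4 had all D-serine libraries below and 0 had all above, or 30.8%, against 35.8% of all tested genes. Rbx1 of the same list went the other way. It averaged 74.1 FPKM with D-serine and 60.5 FPKM with vehicle (log2 difference 0.28, adjusted p = 0.17 in limma).

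Genes of glutathione synthesis, import and use had a median log2 difference of 0.057, with 9 of 16 tested genes above 0. That median turned to -0.020 without D-serine replicate 1, was 0.026 and 0.020 without vehicle replicates 1 and 3, and was 0.12, 0.086 and 0.12 without D-serine replicate 2, D-serine replicate 3 and vehicle replicate 2. Gpx7, a glutathione peroxidase relative of the endoplasmic reticulum, was at 6.48, 3.52 and 3.70 FPKM with D-serine, against 1.26, 0.993 and 0.583 FPKM with vehicle. Its log2 difference of 1.49 ± 0.23 was the largest of the 98 genes, and its adjusted p of 0.057 the smallest. Chac2, which degrades glutathione, averaged 25.4 ± 3.72 FPKM with D-serine and 33.9 ± 2.46 FPKM with vehicle (adjusted p = 0.108). Oplah, 5-oxoprolinase of the glutathione cycle, averaged 47.5 ± 8.02 FPKM with D-serine and 62.0 ± 3.42 FPKM with vehicle (adjusted p = 0.13). All D-serine libraries lay above all vehicle libraries for 6 of the 16 tested genes and below for 3. That makes 56.25%, against 35.8% of all tested genes.

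In the list of thioredoxins, peroxiredoxins and methionine sulfoxide reductases, which holds the partners of Txn1, 6 of 17 tested genes were above 0 and the median was -0.14. The median was -0.031, -0.014 and -0.22 without D-serine replicates 1, 2 and 3, and -0.22, -0.071 and -0.062 without vehicle replicates 1, 2 and 3. Prdx4, the peroxiredoxin of the secretory pathway, averaged 37.7 ± 9.71 FPKM with D-serine and 23.7 ± 4.10 FPKM with vehicle, and the groups overlapped (adjusted p = 0.12). Prdx2, a cytosolic peroxiredoxin that thioredoxin reduces, averaged 418 ± 16.8 FPKM with D-serine and 354 ± 13.8 FPKM with vehicle (adjusted p = 0.14). Sesn1, a sestrin, averaged 4.27 ± 0.285 FPKM with D-serine and 5.59 ± 0.704 FPKM with vehicle (adjusted p = 0.14).

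Among superoxide dismutases, catalase and NADPH oxidases, 4 of 9 tested genes were above 0, with a median of -0.017. It turned to 0.0067 and 0.011 without vehicle replicates 2 and 3, was -0.010, -0.044 and -0.039 without D-serine replicates 1, 2 and 3, and was -0.040 without vehicle replicate 1. Catalase (Cat), which breaks down hydrogen peroxide in peroxisomes, was at 494, 511 and 597 FPKM with D-serine, against 647, 671 and 728 FPKM with vehicle, with all D-serine libraries below all vehicle libraries (log2 difference -0.36, adjusted p = 0.102 in limma). Nox4, the main NADPH oxidase of kidney tubules, averaged 46.0 ± 5.39 FPKM with D-serine and 59.2 ± 12.5 FPKM with vehicle, and Xdh, xanthine dehydrogenase, averaged 4.06 ± 0.419 and 4.63 ± 0.795 FPKM in the same order. Both overlapped (adjusted p = 0.23 and 0.49).

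Conjugation, carbonyl-reducing and drug export genes under NRF2 lay on both sides of 0, with 12 of 23 tested genes above 0, a median of 0.024 and differences from -0.87 to 0.76. The median turned to -0.031 without D-serine replicate 1, and was 0.15 and 0.042 without D-serine replicates 2 and 3 and 0.012, 0.072 and 0.055 without vehicle replicates 1, 2 and 3. Cbr1, a carbonyl reductase, was at 60.5, 78.6 and 73.6 FPKM with D-serine, against 40.5, 45.6 and 42.9 FPKM with vehicle (log2 difference 0.70, adjusted p = 0.058). Ephx1, microsomal epoxide hydrolase, was at 29.1, 25.7 and 21.0 FPKM with D-serine, against 14.97, 14.6 and 15.1 FPKM with vehicle (log2 difference 0.71, adjusted p = 0.058). Gsta2, an alpha-class glutathione transferase with close paralogs that can share its reads, averaged 251 ± 26.5 FPKM with D-serine and 154 ± 34.9 FPKM with vehicle (adjusted p = 0.080). These 3 targets, picked for the smallest p, had all D-serine libraries above all vehicle libraries. Their differences were larger than that of any of the 10 members, but such a pick favours large differences. Of the 23 tested genes, 5 had all D-serine libraries above and 2 (Gsta3 and Abcc2) had all below. That makes 30.4%, against 35.8% of all tested genes. The lowest difference, -0.87, was that of Ugt1a6a, whose groups overlapped.

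Of the NADPH suppliers, 5 of 10 were above 0 and the median was 0.034. It turned to -0.025 without D-serine replicate 3 and -0.046 without vehicle replicate 2, and was 0.071, 0.018 and 0.093 without D-serine replicate 2, vehicle replicate 1 and vehicle replicate 3. Me1, cytosolic malic enzyme and a known NRF2 target, was at 208, 152 and 209 FPKM with D-serine, against 276, 341 and 290.4 FPKM with vehicle (log2 difference -0.68, adjusted p = 0.071). Pgls, of the pentose phosphate pathway, averaged 130 ± 15.4 FPKM with D-serine and 99.1 ± 5.91 FPKM with vehicle, and Nnt, the mitochondrial transhydrogenase, averaged 94.1 ± 3.70 and 112 ± 4.47 FPKM in the same order (adjusted p = 0.10 and 0.13). For 2 of the 10 genes all D-serine libraries lay above all vehicle libraries, and for 3 below. That makes 50%, against 35.8% of all tested genes.

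In heme breakdown and iron storage, 5 of 10 genes were above 0, with a median of -0.049. It turned to 0.0059 without vehicle replicate 2, was -0.14, -0.015 and -0.13 without D-serine replicates 1, 2 and 3, and was -0.076 and -0.15 without vehicle replicates 1 and 3. Alas1, the rate-limiting enzyme of heme synthesis, was at 80.9, 70.6 and 66.5 FPKM with D-serine, against 106, 112 and 114 FPKM with vehicle (log2 difference -0.61, adjusted p = 0.058). Ftl1, the ferritin light chain, another NRF2 target, with pseudogene copies known in the mouse genome, was at 5989, 5685 and 5752 FPKM with D-serine, against 4152, 4676 and 4358 FPKM with vehicle (adjusted p = 0.072). Fech, which inserts iron into heme, averaged 34.3 ± 6.27 FPKM with D-serine and 47.2 ± 2.45 FPKM with vehicle (adjusted p = 0.106). The 2 enzymes of heme synthesis named here and Hmox1 were all lower on average with D-serine, while Ftl1 was higher, and none of them passed.

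**Figure D4:**
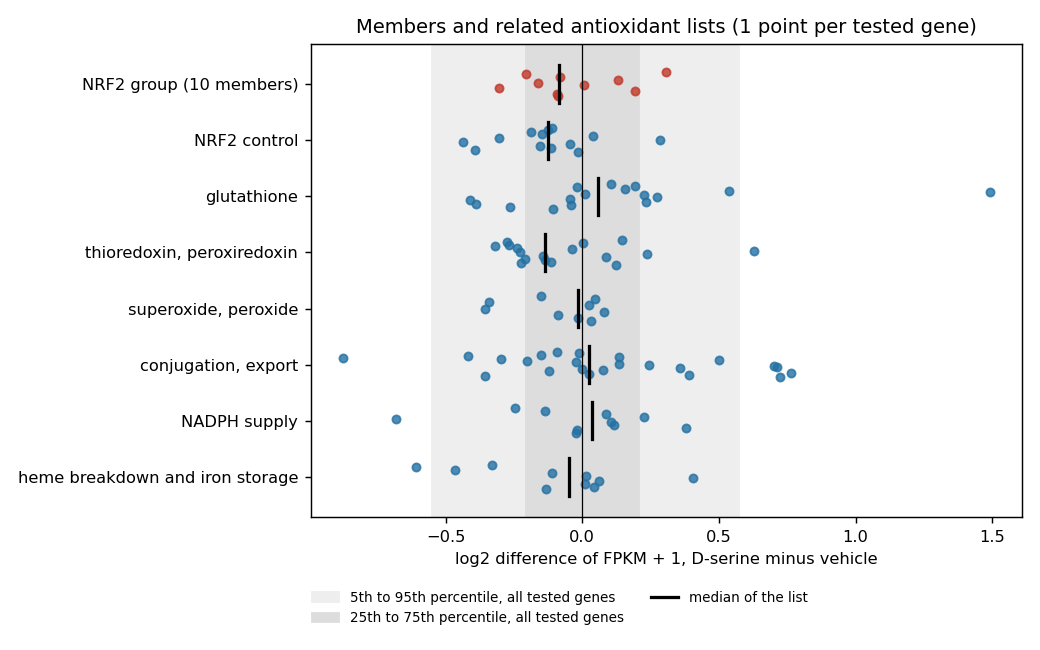
Log2 difference of FPKM + 1 for each tested gene of the 10 members (red) and of the 7 related lists (blue), with the median of each list as a black bar and the range of all tested genes in grey. The medians lie between -0.14 and 0.057, and the far points are Gpx7 at 1.49 and Ugt1a6a at -0.87.

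Kidney markers were abundant, with Umod, the uromodulin of the thick ascending limb, at 526 to 962 FPKM with D-serine and 912 to 1090.2 FPKM with vehicle. Several sums of cell type markers stood apart between the groups, although no marker passed: 7 of 7 tested markers of proximal tubule segment S3 had a log2 difference below 0 (summed level 1069 to 2461 FPKM with D-serine and 3732 to 4012 FPKM with vehicle), and 7 of 7 markers of collecting duct principal cells were above 0 (676 to 1015 FPKM with D-serine and 457 to 614 FPKM with vehicle). Over all tested genes 48.9% were above 0. A sum in FPKM weighs its most abundant genes most. In S3, Cyp4b1 alone was at 747 to 1844 FPKM with D-serine and 2635 to 2766 FPKM with vehicle. The summed intercalated cell markers were at 220.5 to 307 FPKM with D-serine and 181 to 204 FPKM with vehicle, with 6 of 6 tested above 0. Those of the distal convoluted tubule (4 of 4 above 0) were at 746 to 874 FPKM with D-serine and 563 to 734 FPKM with vehicle. Those of fibroblasts, pericytes and smooth muscle (7 of 7 above 0) were at 37.3 to 70.3 FPKM with D-serine and 23.5 to 32.1 FPKM with vehicle. The tubule injury markers (5 of 5 tested above 0) were at 811 to 1113 FPKM with D-serine and 625 to 725 FPKM with vehicle. The D-serine libraries thus stood above the vehicle libraries in each of these 4 sums. Of the 9 injury markers listed, Havcr1, Sox9, Krt20 and Vcam1 were too low to test. Havcr1 averaged 0.145 FPKM with D-serine and 0.329 FPKM with vehicle, and Sox9 averaged 0.217 and 0.218 FPKM in the same order. Krt20 and Vcam1 were higher on average with D-serine. The sums overlapped for segments S1 and S2 (5029 to 6064 FPKM with D-serine and 5288 to 6580.0 FPKM with vehicle, 9 of 10 below 0) and for the thick ascending limb (852 to 1576 FPKM with D-serine and 1400.1 to 1619 FPKM with vehicle, 3 of 5 below 0). They also overlapped for endothelial cells (22.9 to 33.1 FPKM with D-serine and 12.6 to 25.3 FPKM with vehicle, 5 of 6 above 0) and podocytes (28.4 to 33.9 FPKM with D-serine and 9.57 to 49.1 FPKM with vehicle, 5 of 5 above 0). In bulk tissue fewer cells of a type and less RNA per cell cannot be told apart. The part of these shifts in the values of the NRF2 genes was not tested.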

How the data were processed

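Libraries were prepared from TRIzol-extracted kidney RNA using the stranded mRNA version of TruSeq, according to the labels. The submitters' processing notes name TopHat2 2.0.13, Bowtie2 2.2.3, SAMtools 0.1.19 and Cufflinks 2.2.1, and the genome mm10. Each library's table of FPKM values was deposited by the authors. Annotation, strand setting and read length are not given here.

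Genes that averaged 1 FPKM or more were tested with limma 3.58.1 in R 4.3.3 (lmFit, then eBayes with its trend option) on log2(FPKM + 1), two-sided, with Benjamini-Hochberg adjustment over all 11737 genes and a threshold of 0.05. Because 1 FPKM is added, differences of low genes come out too small. The 2 ratios of genes were compared with an exact permutation test. The fit was tested on simulated data. The tables hold no counts, so depth was estimated: low values move in steps of 1 fragment, which put the libraries at 0.836 to 1 of the deepest one. Genes with 1 annotated transcript of over 1000 bases, shortened by 200 bases, put the totals at roughly 7800000 to 9400000 fragments. Only 73.7 to 76.9% of low values were then within 0.08 of a whole fragment, so no count test was run.

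Positions are from GENCODE M21 (mm10). The members, the lists and the markers were chosen with earlier results of these data known. Named from each list were genes past the threshold and the 3 with the smallest p, and the 3 genes nearest in pattern to Nfe2l2 and to the member with the smallest p. Outside that rule, Rbx1, Gsta3 and Abcc2 were named because they went the other way from the picks of their lists. Ugt1a6a was named as the lowest of its list, and Gstm2 because it passed without D-serine replicate 3. Alternatives changed the pseudocount, the minimum level, the scaling, the trend, the library weights and the replicate block, or left out each library in turn.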

Additional observations from a re-analysis of the deposited data

How the results depend on the processing

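All 10 members kept an adjusted p above 0.05 under each of the 14 alternatives, and their count of calls was 0 throughout (lowest adjusted p = 0.091, for Txn1). Their median log2 difference, -0.084, ran from -0.10 to -0.0025 when each library was left out in turn and from -0.086 to -0.033 otherwise. Without 1 library Nfe2l2 ran from -0.22 to 0.045 and Gclc from -0.087 to 0.097. The direction changed for Nfe2l2 without D-serine replicate 2 (0.045) and for Gclc with weighted libraries (-0.017) and without D-serine replicate 3 (-0.087), vehicle replicate 1 (-0.034) or vehicle replicate 3 (-0.045). The log2 difference of the ratio of Nfe2l2 to Keap1, 0.0068, ran from -0.13 to 0.12 without 1 library, at -0.13, -0.0050 and -0.060 without D-serine replicate 3, vehicle replicate 1 and vehicle replicate 3; that of Gclc to Gclm, 0.17, ran from 0.097 to 0.30. Over all tested genes the 9 calls became 171 with a pseudocount of 0.1 FPKM, 132 with a minimum of 5 FPKM, 15 with median-of-ratios scaling and 269 with weighted libraries, and 2 to 437 without 1 library. The cause was not tested.

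Of the 98 related genes, none passed as reported above and 4 passed with a pseudocount of 0.1 FPKM (Gpx7, Ephx1, Cbr1, Alas1), with a minimum of 5 FPKM (Ephx1, Cbr1, Ftl1, Alas1), with weighted libraries (Gpx7, Ephx1, Cbr1, Alas1) and without D-serine replicate 3 (Gpx7, Gstm2, Ephx1, Alas1). Same-numbered libraries showed no clear shared deviation (correlations of -0.070, 0.0031 and 0.067), and differently numbered ones ran from -0.082 to 0.083. With 3 libraries per group this cannot show whether the numbers pair the libraries. With the replicate number as a block, 2 genes passed over all genes and 0 members. Hmox1 and Keap1 had the fewest estimated fragments.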
